A study of Mus musculus with 10 samples.

Results

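Glycolysis splits glucose into pyruvate, and the genes described here are 33 genes of that pathway and of the response to low oxygen, out of 49671 gene IDs counted. They were chosen by symbol: 2 glucose transporters, 16 enzymes, 2 lactate transporters, 3 regulators of flux, Hif1a, and 9 targets of hypoxia-inducible factor (HIF) outside the pathway. RNA was sequenced from TH2 cells, the helper T cells that make interleukins 4, 5 and 13, harvested on day 5 of polarisation. The mice were C57BL/6 and wild type, per the labels. There were 7 libraries from vitamin D-deficient mice, bred without UV light on food that lacked vitamin D, and 3 from control mice on standard chow that supplied vitamin D3 (400 IU per kg). The mice were offspring of the second generation of breeding, and every culture was under the same TH2 condition. The labels put 5 deficient and 2 control libraries in batch 1, and 2 deficient and 1 control library in batch 2. They give no age or sex and do not say that each library came from a separate mouse, so p-values measure the spread between these libraries.

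Cytosolic glycolysis has a preparatory stage that spends ATP, from hexokinase to triosephosphate isomerase, and a payoff stage that regains it, from glyceraldehyde-3-phosphate dehydrogenase to pyruvate kinase. Lactate dehydrogenase then turns pyruvate into lactate, which restores the NAD+ that the pathway uses. Many of the steps have several isoenzymes encoded by separate genes. In activated T cells the pathway is raised, and HIF-1, the dimer of HIF1A and ARNT, binds DNA motifs with the core ACGTG or GCGTG at many of its genes. HIF1A protein is controlled mainly by prolyl hydroxylation and decay, which RNA levels do not show.

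Total counts per library were 7029207 to 13433276 in the deficient group and 5800698 to 6462146 in the control group, so a gene at the same level rests on fewer counts in controls. Levels are given as CPM, that is, counts scaled by the total of the library's column. Fold changes and adjusted p-values come from edgeR's quasi-likelihood test with terms for diet and batch, fitted to 13699 genes and adjusted by Benjamini-Hochberg, with 0.05 as the threshold. The first principal component, 67.6% of the variance, separated the diets, and the second, 12.3%, set deficient libraries 5 to 7 apart from deficient libraries 1 to 4. Batch 2 consisted of deficient libraries 6 and 7 and control library 3. A difference between estimates from each batch alone is therefore mixed with that split. Deficient libraries 1 and 3 held 657 and 733 CPM of Xist, a noncoding RNA of the inactive X chromosome, and every other library held at most 0.345 CPM. Of 9 T cell and TH2 markers 6 were lower in the deficient group, with log2 fold changes down to -3.09. They were the T cell genes Cd3e, Cd3g and Cd4 and the TH2 markers Gata3, Ccr4 and Il1rl1. Another 2 (Il13 and Il5, TH2 cytokines) were higher and 1 (Il4) did not pass. Il13 was 199.6 ± 38.1 CPM in the deficient group and 80.9 ± 17.0 CPM in the control group, Cd4 335 ± 30.9 and 723 ± 13.8 CPM, and Cd3e 27.9 ± 2.93 and 53.8 ± 3.34 CPM (SD, n = 7 and 3). Summed CPM of 10 cytotoxic T cell markers was 687 to 1958 in deficient libraries and 98.8 to 200 in control libraries. Of the 9 tested, 8 were higher in the deficient group, among them Gzmb (granzyme B) at 847 ± 269 and 73.5 ± 32.1 CPM, and none was lower. In a bulk library, fewer cells of a type and less RNA per cell cannot be told apart.

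All 33 genes passed the count filter. In deficient cells 14 of them (42.4%) were higher and 10 (30.3%) lower than in controls, while 29.4% of all tested genes were higher and 28.6% lower. Either call was made for 72.7% of the 33 genes and 58.0% of all tested genes. Calls in both directions were made within glucose transport, phosphofructokinase and enolase, and the median log2 fold change of the 33 genes was 0.07, against 0.02 over all tested genes. In 13 genes (39.4%) every deficient library lay above every control library and in 8 (24.2%) every one lay below, against 29.4% and 21.4% of all tested genes (50.8% for both directions). Together the 33 genes took 0.659 to 0.812% of the counts in deficient libraries and 0.645 to 0.672% in control libraries.

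**Figure D1:**
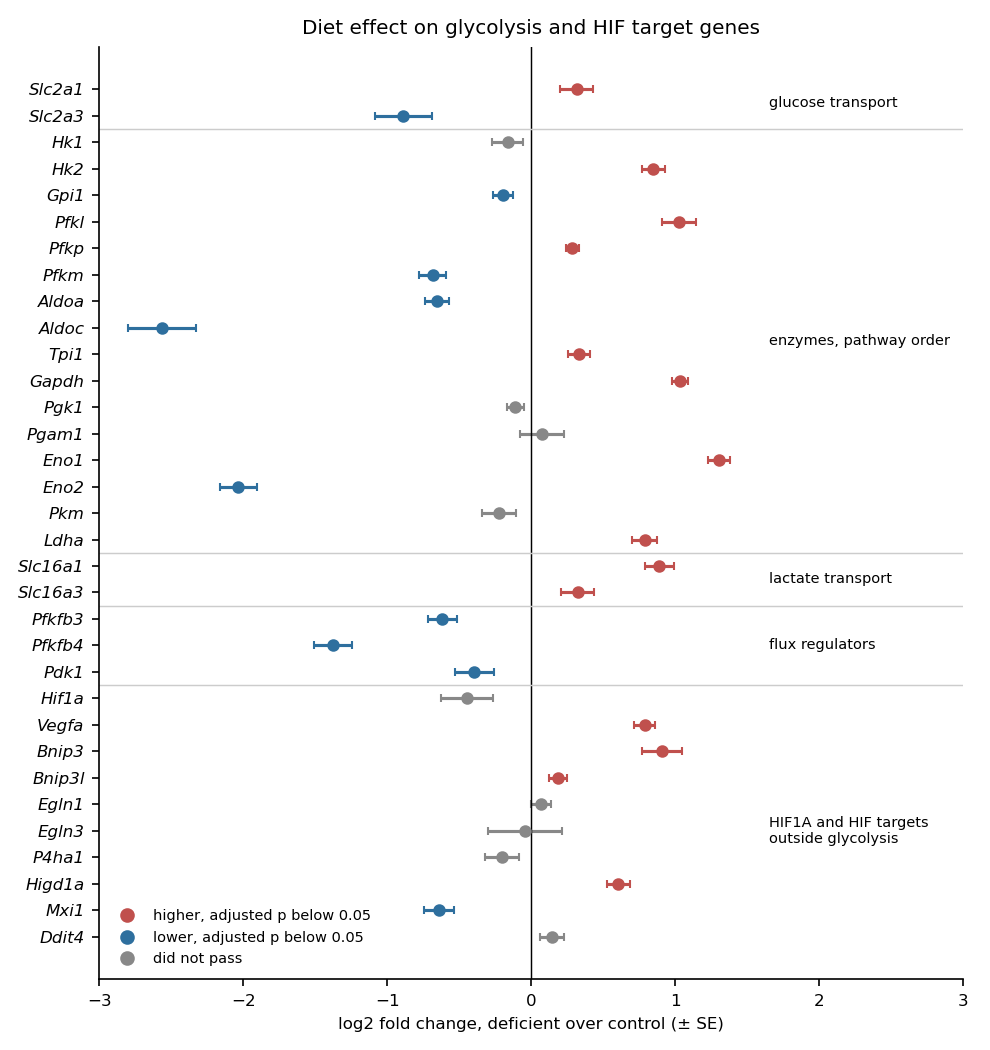
Log2 fold change of deficient over control cells (x axis, bars ± SE) for the 33 genes in pathway order (y axis), coloured by the call at an adjusted p of 0.05. The genes fall on both sides of 0 within transport, enzymes and HIF targets, with Eno1 farthest to the right at 1.30 and Aldoc farthest to the left at -2.56.

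The promoters of 5 genes with large changes are shown because they illustrate how the HIF core was spread among genes that moved in opposite directions. Each is the 5′-most RefSeq window of the gene, 250 bases before to 50 after the start on GRCm38.p6, printed 5′ to 3′ along the gene. Capitals mark ACGTG or GCGTG on either strand, where the opposite strand reads CACGT or CACGC, and CACGTG counts as 2 overlapping matches. Eno1 at chr4:150236458-150236757 (+ strand) held 2 matches and was higher in deficient cells, whereas Eno2 at chr6:124769624-124769923 (- strand) held 0 and was lower.
Eno1: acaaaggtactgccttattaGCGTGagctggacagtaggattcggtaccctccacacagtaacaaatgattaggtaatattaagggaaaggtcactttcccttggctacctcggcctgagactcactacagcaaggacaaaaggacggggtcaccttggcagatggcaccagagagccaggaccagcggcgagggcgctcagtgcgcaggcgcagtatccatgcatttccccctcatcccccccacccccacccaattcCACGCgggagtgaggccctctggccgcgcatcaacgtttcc
Eno2: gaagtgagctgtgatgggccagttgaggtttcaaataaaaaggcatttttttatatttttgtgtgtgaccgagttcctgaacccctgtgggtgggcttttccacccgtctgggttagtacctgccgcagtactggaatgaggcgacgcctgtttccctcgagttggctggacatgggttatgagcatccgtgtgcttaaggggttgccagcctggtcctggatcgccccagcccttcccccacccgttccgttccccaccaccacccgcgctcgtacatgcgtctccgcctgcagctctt

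Gapdh at chr6:125165724-125166023 (- strand) held 3 matches and Ldha at chr7:46845554-46845853 (+ strand) held 7, and both were higher in deficient cells. Aldoc at chr11:78322823-78323122 (+ strand) held 3 and was lower.
Gapdh: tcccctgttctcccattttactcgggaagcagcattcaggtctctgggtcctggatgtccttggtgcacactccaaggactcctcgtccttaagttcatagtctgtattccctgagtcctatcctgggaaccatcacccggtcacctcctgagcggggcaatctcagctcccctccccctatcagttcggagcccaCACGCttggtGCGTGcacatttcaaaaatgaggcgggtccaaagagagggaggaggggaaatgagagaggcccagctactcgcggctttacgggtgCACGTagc
Ldha: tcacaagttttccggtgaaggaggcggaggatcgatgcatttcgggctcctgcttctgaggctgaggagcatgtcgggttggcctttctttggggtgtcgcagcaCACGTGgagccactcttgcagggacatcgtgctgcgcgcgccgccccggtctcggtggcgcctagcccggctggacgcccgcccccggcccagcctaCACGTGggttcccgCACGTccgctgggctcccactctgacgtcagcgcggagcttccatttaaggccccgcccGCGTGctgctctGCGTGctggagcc
Aldoc: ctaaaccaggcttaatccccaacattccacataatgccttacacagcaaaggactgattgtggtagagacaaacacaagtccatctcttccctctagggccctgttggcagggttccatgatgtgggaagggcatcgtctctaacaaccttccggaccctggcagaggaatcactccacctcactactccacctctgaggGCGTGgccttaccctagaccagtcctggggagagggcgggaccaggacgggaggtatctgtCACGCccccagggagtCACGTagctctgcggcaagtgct

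RefSeq windows were found for 31 of the 33 genes, 47 windows in all. The core was in 37 of the 47 windows (78.7%), against 14380 of all 32851 promoter windows of that length (43.8%). It was in 15 of 17 windows (88.2%) of genes that were higher, in 13 of 19 (68.4%) of genes that were lower, and in 9 of 11 (81.8%) of the others. Windows of the glycolysis genes held it in 27 of 35 cases (77.1%) and those of the HIF targets outside glycolysis in 9 of 11 (81.8%). Some genes had several windows, so the windows are not separate cases. By gene, 28 of 31 (90.3%) held the core in any window, against 46.7% of all symbols. The 33 genes were chosen as glycolysis genes and HIF targets, and the other promoters were not matched to them for base composition. The larger share is therefore not read as a result of these data. A match describes letters in the window and not binding.

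Glucose enters through facilitative transporters, and the 2 measured here moved in opposite directions. Slc2a3, at chr6:122727809-122801640, encodes GLUT3, a high-affinity transporter. Its lowest, median and highest levels in deficient libraries were 23.2, 26.8 and 44.1 CPM, and control libraries had 58.8, 55.3 and 55.6 CPM. Every deficient library lay below every control library, and the estimate was -0.89 on the log2 scale (SE 0.20, adjusted p = 0.00365). Within the deficient group libraries 1 to 4 had 23.2 to 26.8 CPM and libraries 5, 6 and 7 had 43.8, 44.1 and 37.6 CPM. Alone, batch 1 gave -1.06 and batch 2, whose deficient libraries were 6 and 7, gave -0.49. Slc2a1, at chr4:119108711-119137983, encodes GLUT1, the main transporter induced on T cell activation. It had 23.2, 25.0 and 28.4 CPM at its lowest, median and highest in deficient libraries, and 15.2, 18.9 and 23.7 CPM in control libraries, with overlap. Its log2 fold change was 0.32 (SE 0.12, adjusted p = 0.0304), and it lost the call without control library 1 (0.20, adjusted p = 0.200), without control library 2 (adjusted p = 0.0819) or in batch 2 alone (0.04). Per exonic length, Slc2a1 made up 62.1 ± 6.34% of the pair in deficient cells and 41.0 ± 6.03% in control cells (SD, n = 7 and 3). Exonic length merges the exons of all annotated transcripts, so the size of such shares depends on the annotation.

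Hexokinase traps glucose in the cell as glucose 6-phosphate. Hk2, the inducible isoenzyme at chr6:82725025-82774454, had 143, 146 and 186 CPM as lowest, median and highest of the deficient libraries, against 75.9, 84.0 and 92.2 CPM in control libraries. The groups did not overlap, and the log2 fold change was 0.85 (SE 0.08, adjusted p = 4.16e-07). Hk1, the housekeeping isoenzyme, averaged 46.5 ± 6.66 CPM in deficient and 49.2 ± 0.825 CPM in control cells and did not pass the test (log2 -0.16, adjusted p = 0.204). Hk1 did pass without deficient libraries 5 to 7 (-0.28), which were set apart on these same data. Hk2 was thus 83.0 ± 1.74% of the pair per length in deficient cells and 70.9 ± 2.00% in control cells. Gpi1, which isomerises glucose 6-phosphate to fructose 6-phosphate, averaged 239 ± 19.7 and 259 ± 14.3 CPM. Its groups overlapped, and the call at log2 -0.20 (adjusted p = 0.0290) was lost with control library 1, control library 2 or deficient library 2, 3, 4 or 7 left out.

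Phosphofructokinase commits the sugar to glycolysis, and its 3 subunit genes changed unequally. Pfkl, the liver-type subunit at chr10:77986947-78010083, had 67.6, 78.4 and 95.0 CPM as lowest, median and highest in deficient libraries, against 28.6, 38.8 and 47.5 CPM in control libraries. It was 2.03-fold higher without overlap (log2 1.02, SE 0.12, adjusted p = 5.02e-06). Pfkm, the muscle-type subunit, had 28.4, 30.0 and 36.5 CPM in deficient libraries and 48.3, 49.4 and 43.3 CPM in control libraries, and was lower without overlap (log2 -0.69, SE 0.09, adjusted p = 1.70e-05). Pfkp, the platelet-type subunit and the most abundant, averaged 683 ± 20.6 and 529 ± 18.3 CPM, a log2 change of 0.28 (SE 0.05, adjusted p = 7.45e-05). Per length, Pfkl was 16.8 ± 2.11% of the 3 subunit RNAs in deficient cells and 9.65 ± 2.12% in control cells. Pfkm was 12.8 ± 1.25% and 23.8 ± 2.20%, and Pfkp 70.4 ± 2.11% and 66.6 ± 1.30%. Part of Pfkm's exonic length, 10.2%, overlaps Gm26513 on the same strand.

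Both aldolase genes, whose enzymes split fructose 1,6-bisphosphate, were lower in deficient cells. Aldoa, the form of muscle and most cells at chr7:126795234-126800751, had 590, 731 and 773 CPM as lowest, median and highest in deficient libraries and 1015, 1025 and 1072 CPM in control libraries. Its log2 fold change was -0.66 (SE 0.08, adjusted p = 1.71e-05), with no overlap. Aldoc, the brain-type form at chr11:78322968-78327781, had 5.83, 9.58 and 14.5 CPM in deficient libraries, against 47.4, 54.3 and 65.1 CPM in control libraries. The log2 estimate, -2.56 (SE 0.24, adjusted p = 8.65e-06), made it the most reduced of the 33 genes. Aldoc held 1.21 ± 0.350% of aldolase RNA per length in deficient cells and 4.55 ± 0.573% in control cells, so Aldoa remained the main form in both. Tpi1, triosephosphate isomerase, averaged 359 ± 36.2 and 271 ± 26.8 CPM, and was higher without overlap (log2 0.33, SE 0.07, adjusted p = 0.00131).

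Gapdh opens the payoff stage with the NAD+-dependent oxidation of glyceraldehyde 3-phosphate, and lies at chr6:125161715-125166467. It had 759, 851 and 854 CPM as lowest, median and highest in deficient libraries and 380, 384 and 385 CPM in control libraries. The difference was 2.05-fold (log2 1.03, SE 0.06, adjusted p = 1.52e-09), and each batch alone gave a like value, 1.01 in batch 1 and 1.09 in batch 2. Gapdh is often used as a reference gene for RNA amounts. The next enzymes, Pgk1 (phosphoglycerate kinase) and Pgam1 (phosphoglycerate mutase), did not pass the test. Pgk1 averaged 643 ± 50.2 CPM in deficient and 655 ± 20.2 CPM in control cells (log2 -0.11), and it passed without deficient library 5 (-0.14, adjusted p = 0.0330). Pgam1 averaged 12.9 ± 1.77 and 11.5 ± 1.57 CPM. Much of each gene is sequence found in other genes too: 53.9% of Pgk1's and 36.2% of Pgam1's stretches of 50 bases occur in another annotated gene, so their levels are uncertain.

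Enolase makes phosphoenolpyruvate, and its genes showed the widest divergence of the pathway. Eno1, the ubiquitous form at chr4:150236721-150248879, had 464, 515 and 578 CPM as lowest, median and highest in deficient libraries, against 192, 186 and 219 CPM in control libraries. It was 2.47-fold higher (log2 1.30, SE 0.07, adjusted p = 1.57e-09). Eno2, the neuronal form at chr6:124760053-124769673, had 5.84, 8.68 and 10.6 CPM in deficient libraries and 33.1, 29.3 and 39.2 CPM in control libraries. Its log2 fold change was -2.03 (SE 0.13, adjusted p = 4.74e-09), and neither gene's groups overlapped. The log2 ratio of Eno2 to Eno1 counts differed by -3.35 between deficient and control cells, and Eno2 was 1.88 ± 0.267% of the pair per length in deficient cells and 16.3 ± 0.881% in control cells. These values leave out genes that share Eno1's sequence and were counted mainly in controls. With those summed, the log2 fold change of Eno1 was 0.99, so the ratio difference and the control share would be smaller. In the windows printed above, the Eno1 promoter held the HIF core and that of Eno2 did not, while that of Aldoc, also lower, held it. The core was in 15 of 17 windows of higher genes and in 13 of 19 of lower genes. Whether it had a part in these changes was not tested.

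Pyruvate kinase and lactate dehydrogenase end the route. Pkm averaged 468 ± 63.7 CPM in deficient and 516 ± 16.0 CPM in control cells and did not pass the test (log2 -0.22, adjusted p = 0.125). The counts per gene do not separate its M1 and M2 splice forms. Its level is also less certain, since 25.8% of its stretches of 50 bases occur in other genes. Gm49759 overlaps 15.3% of its exonic length on the same strand. Ldha, at chr7:46841475-46855627, had 356, 422 and 465 CPM as lowest, median and highest in deficient libraries, against 212, 231 and 232 CPM in control libraries. It was 1.73-fold higher with no overlap (log2 0.79, SE 0.08, adjusted p = 1.88e-06). Against Ldhb, the isoform named for the heart, Ldha was 74.9 ± 3.09% of the pair per length in deficient cells and 66.3 ± 1.01% in control cells.

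**Figure D2:**
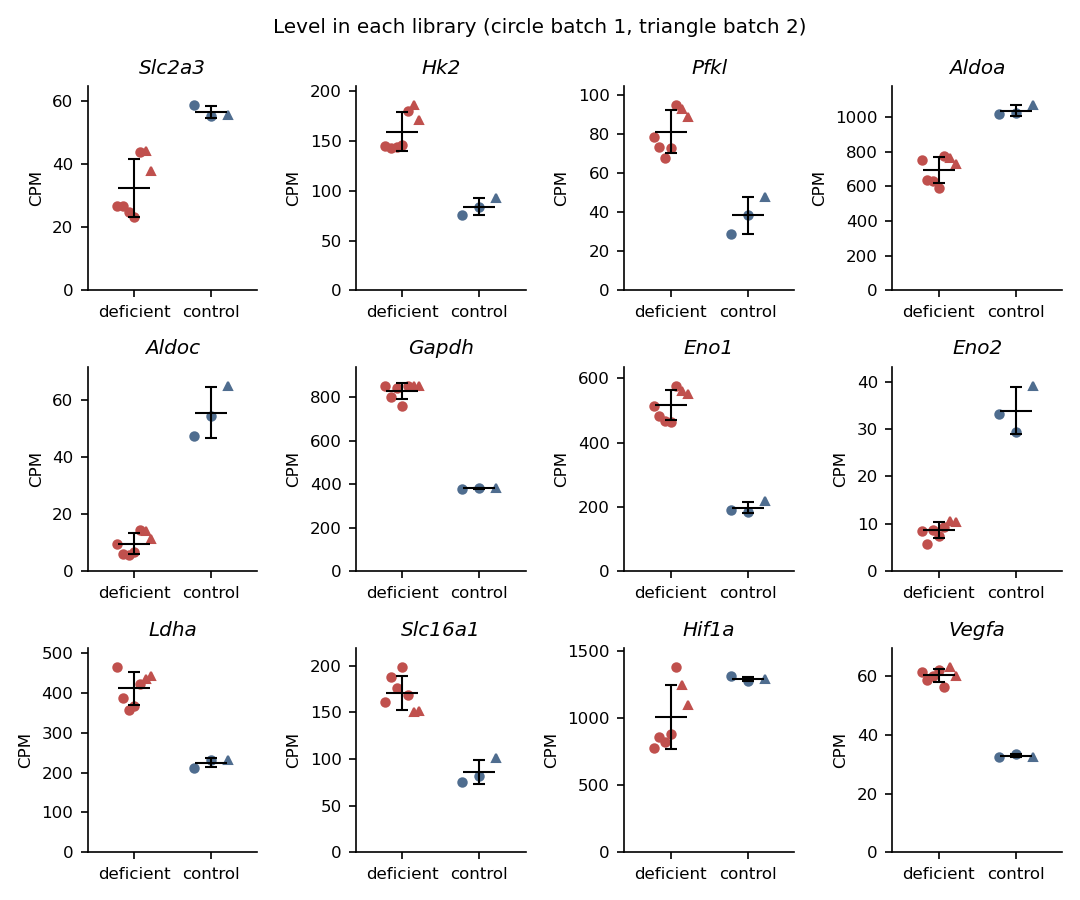
CPM (y axes, from 0) of 12 genes in each deficient (left, n = 7) and control (right, n = 3) library, with circles for batch 1, triangles for batch 2, and lines for the mean ± SD. Hif1a is the only gene of the 12 whose groups overlap, since deficient libraries 5 to 7 reach 1381, 1244 and 1093 CPM.

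Over the 16 enzymes, 7 (43.8%) were higher and 5 (31.2%) lower in deficient cells, with a median log2 fold change of -0.02. Of all tested genes 29.4% were higher and 28.6% lower. The summed CPM of the 7 payoff-stage and lactate enzymes was 2618, 2972 and 3108 at its lowest, median and highest in deficient libraries, against 2006, 2011 and 2053 at the same points in control libraries. That of the 9 preparatory enzymes was 2147, 2324 and 2504 in deficient libraries, and 2283, 2345 and 2481 in control libraries, with overlap. Sums in CPM are led by the most abundant and longest RNAs. Of the payoff-stage and lactate enzymes, Gapdh, Eno1 and Ldha were higher, Eno2 was lower, and Pgk1, Pgam1 and Pkm did not pass. Their sum leaves out Gm13394, Eno1b and Gm4735, which share sequence with Gapdh or Eno1. Those averaged 77.7, 31.6 and 17.2 CPM in control libraries and were near 0 in deficient ones. Per exonic length, Pgk1 was highest in deficient cells at 287 CPM per kb, followed by Aldoa at 239 and Gapdh at 201. In control cells Aldoa led at 356 CPM per kb, ahead of Pgk1 at 292, and Gapdh was at 92.7. The length was that of the merged exons of all annotated transcripts, 2244 bases for Pgk1 and 4133 for Gapdh. This order of genes therefore depends on the annotation and may differ with the length of the RNA made.

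Lactate leaves the cell through monocarboxylate transporters, and both genes were higher in deficient cells. Slc16a1 (MCT1) had 150, 168 and 199 CPM as lowest, median and highest in deficient libraries, against 75.9, 82.2 and 101 CPM in control libraries. Its log2 fold change was 0.89 (SE 0.10, adjusted p = 2.57e-06), at 1.08 in batch 1 alone and 0.52 in batch 2 alone. Both deficient libraries of batch 2, 6 and 7, belong to the set of libraries 5 to 7, so batch is mixed with that split. The product of diet and batch had an unadjusted p of 0.00155 for Slc16a1 and passed adjustment for none of the 33 genes. Slc16a3 (MCT4), the lactate exporter of glycolytic cells, averaged 40.3 ± 6.15 and 30.5 ± 0.235 CPM. The log2 estimate was 0.32 (SE 0.12, adjusted p = 0.0254), and its call was lost without control library 2 or 3, deficient library 6, or deficient libraries 5 to 7 (0.15).

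All 3 regulators of flux were lower in deficient cells. Pfkfb4 and Pfkfb3 encode bifunctional enzymes that set fructose 2,6-bisphosphate, the activator of phosphofructokinase. Pfkfb4 had 8.91, 10.6 and 13.5 CPM as lowest, median and highest in deficient libraries, against 26.2, 26.0 and 26.2 CPM in control libraries (log2 -1.38, SE 0.13, adjusted p = 3.57e-07). Pfkfb3 had 21.5, 22.8 and 27.9 CPM in deficient libraries and 36.4, 30.3 and 35.6 CPM in control libraries (log2 -0.62, SE 0.10, adjusted p = 9.08e-05). Neither overlapped. Pfkfb4 was 41.0 ± 2.96% of the pair per length in deficient cells and 54.4 ± 2.35% in control cells. Pdk1, whose kinase shuts pyruvate out of the mitochondrial dehydrogenase complex, averaged 33.5 ± 6.48 and 41.9 ± 4.95 CPM with overlap. Its log2 change of -0.40 (adjusted p = 0.0229) was not past the threshold when any 1 control library was left out.

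Hif1a, the oxygen-regulated subunit of HIF-1, lies at chr12:73901375-73947530. It had 777, 877 and 1381 CPM as lowest, median and highest in deficient libraries, and 1308, 1275 and 1285 CPM in control libraries. Deficient libraries 1 to 4, at 777 to 877 CPM, lay below every control library, while libraries 5, 6 and 7 had 1381, 1244 and 1093 CPM, and library 5 lay above every control. The log2 fold change was -0.44 (SE 0.18, adjusted p = 0.0644) and did not pass. It did pass without deficient library 5, the highest of the group (-0.56, adjusted p = 0.000156). Without deficient libraries 5 to 7 the estimate was -0.73. Those libraries were the highest of the group in Hif1a and were set apart by a principal component of these same data. The lower estimate follows from leaving them out and is not read as a test. Libraries 5, 6 and 7 also held the highest summed cytotoxic markers, 1958, 1782 and 1490 CPM, and 293, 281 and 318 CPM of 8 B cell markers, against 687 to 1040 and 56.2 to 82.9 CPM in deficient libraries 1 to 4.

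The split within the deficient group was not particular to Hif1a. In 17 of the 33 genes (51.5%) libraries 5 to 7 all lay above libraries 1 to 4, and in 0 of 33 all lay below, against 14.3% and 13.4% of all tested genes. The split is a description without a test, since those libraries were set apart by a principal component of these same data. Among the genes called higher were Hk2, at 171 to 186 CPM in libraries 5 to 7 and 143 to 146 CPM in libraries 1 to 4, and Eno1, at 552 to 578 and 464 to 515 CPM. Pfkl, Tpi1 and Slc16a3 were split in the same way. Among the genes called lower were Aldoc, at 11.5 to 14.5 CPM in libraries 5 to 7 and 5.83 to 9.58 CPM in libraries 1 to 4, and Mxi1, at 47.0 to 52.7 and 34.8 to 42.1 CPM. Slc2a3, Gpi1, Eno2 and Pdk1 were the others called lower. The genes that had not passed were Hif1a, Pgk1, Egln1, Egln3, P4ha1 and Ddit4, with Ddit4 at 236 to 239 and 186 to 202 CPM. Whether RNA of cytotoxic or B cells had a part in the levels of those libraries was not tested.

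Of the 9 HIF targets outside glycolysis, 4 (44.4%) were higher and 1 (11.1%) lower in deficient cells, with a median log2 fold change of 0.14. Over all tested genes the shares were 29.4% and 28.6%. Vegfa, the vascular growth factor, had 56.4, 60.0 and 63.3 CPM as lowest, median and highest in deficient libraries and 32.6, 33.7 and 32.7 CPM in control libraries (log2 0.79, SE 0.07, adjusted p = 1.83e-07). Bnip3, a receptor for mitophagy, had 26.0, 39.2 and 41.8 CPM in deficient libraries and 16.7, 18.6 and 22.3 CPM in control libraries (log2 0.91, SE 0.14, adjusted p = 7.39e-05). Higd1a, a small protein of the mitochondrial inner membrane, had 67.9, 80.4 and 92.9 CPM in deficient libraries and 48.8, 49.9 and 51.1 CPM in control libraries (log2 0.60, SE 0.08, adjusted p = 1.10e-05). The groups overlapped in none of these 3 genes. Sequence shared with other genes or overlapped by a gene on the opposite strand makes the levels of Bnip3 and Higd1a less certain: 47.2% and 24.4% of their stretches are shared, and Gm45507 and Gm47112 cover 22.3% and 22.5% of their exonic length.

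Bnip3l, the close relative of Bnip3, was higher by a log2 change of 0.18 (adjusted p = 0.0200), at 95.8 ± 5.39 and 79.4 ± 2.58 CPM, and it was not past the threshold without control library 2 or 3 or deficient libraries 5 to 7. Mxi1, a MAX-binding repressor that opposes MYC, was the target that was lower. It had 34.8, 42.1 and 52.7 CPM as lowest, median and highest in deficient libraries, against 68.3, 60.9 and 66.7 CPM in control libraries (log2 -0.64, SE 0.10, adjusted p = 9.25e-05), with no overlap. The others did not pass. Among them, Egln1 and Egln3 encode the prolyl hydroxylases that mark HIF1A for decay. Egln1 had log2 0.07 (adjusted p = 0.438) and Egln3 -0.04 (adjusted p = 0.900). P4ha1, a collagen prolyl hydroxylase, had -0.20 (adjusted p = 0.160) and passed without deficient library 5 (-0.28, adjusted p = 0.00166). Ddit4, an inhibitor of mTORC1, averaged 214 ± 22.7 and 182 ± 14.9 CPM, at 0.14 (adjusted p = 0.152).

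Set side by side, enzymes were higher in 7 of 16 (43.8%) and lower in 5 of 16 (31.2%). HIF targets outside glycolysis were higher in 4 of 9 (44.4%) and lower in 1 of 9 (11.1%). Of all tested genes 29.4% were higher and 28.6% lower, so the share of lower enzymes was near that of all genes. The medians of enzymes and HIF targets, -0.02 and 0.14, stand beside 0.02 over all tested genes. With these numbers of genes the shares of higher genes were close to each other, and no test of the difference was run because the genes were chosen with results known. Summed CPM of the HIF targets was 616, 661 and 753 at its lowest, median and highest in deficient libraries, and 564, 582 and 588 in control libraries.

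**Figure D3:**
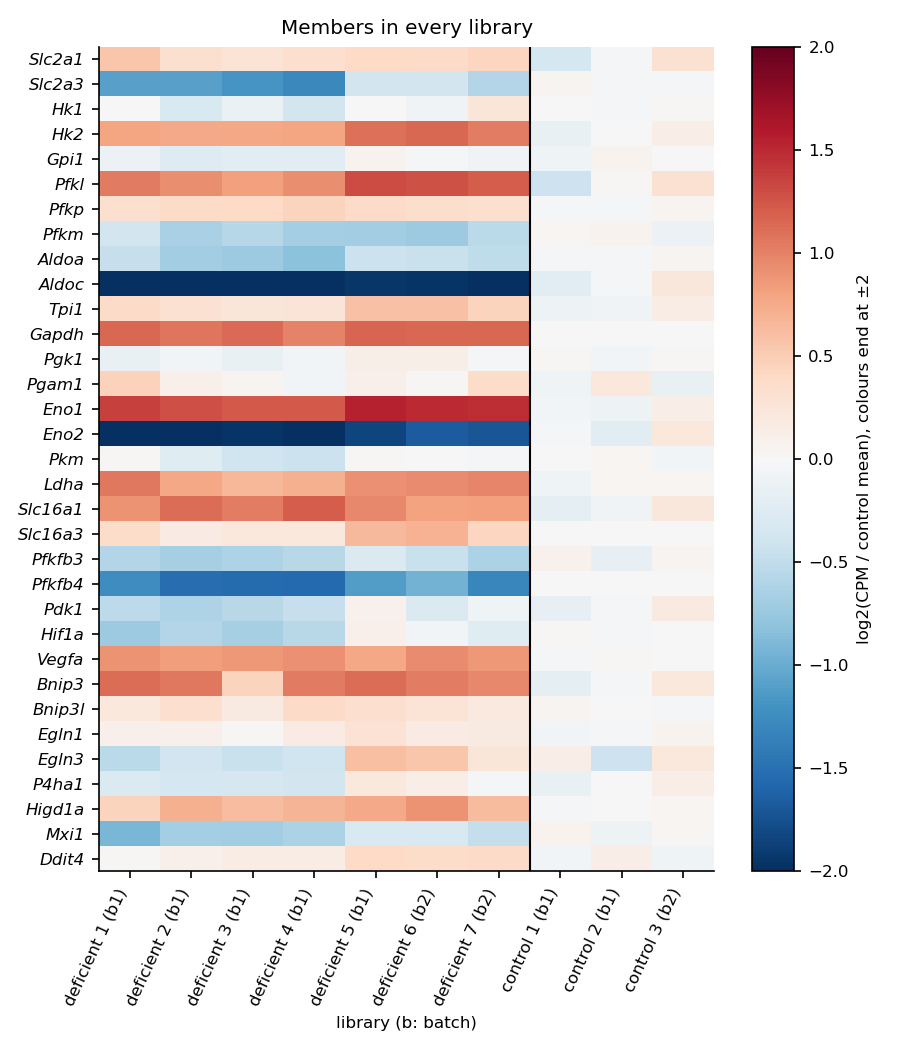
Log2 ratio of each library's CPM to the control mean (colour, ended at ±2) for the 33 genes (rows, pathway order), with 7 deficient libraries on the left and 3 control libraries on the right, b for batch. Deficient libraries 5 to 7 lie above deficient libraries 1 to 4 in 17 of the 33 genes, among them Slc2a3, Hk2, Hif1a and Mxi1, while Gapdh, Eno1 and Vegfa are above the control mean in all 7.

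Ratios between 2 genes of the same step do not depend on library scaling. Of 11 pairs compared, 10 passed a two-sided exact permutation test over the 120 ways to split 10 libraries into 7 and 3, after Benjamini-Hochberg adjustment over the pairs, and in 9 the groups did not overlap. Those 9 had an exact p of 0.00833, the smallest that the splits allow (adjusted p = 0.0102), and an adjusted exact p of 0.0194 when libraries were permuted within batches. The differences in log2 ratio were 1.25 for Slc2a1 to Slc2a3, 1.01 for Hk2 to Hk1, 0.73 for Pfkl to Pfkp, -0.97 for Pfkm to Pfkp, -2.00 for Aldoc to Aldoa, and -3.35 for Eno2 to Eno1. They were -0.78 for Pfkfb4 to Pfkfb3, 0.70 for Bnip3 to Bnip3l and 0.60 for Ldha to Ldhb. Slc16a3 to Slc16a1 differed by -0.60 with overlap (exact permutation p = 0.0333, adjusted 0.0367), and Egln3 to Egln1 by -0.18 (exact permutation p = 0.55). No share was computed over other pairs of genes, and 50.8% of all tested genes taken singly did not overlap between the groups. The genes were also chosen with earlier results known, so the counts of pairs are not read as particular to them. In these libraries the minor isoenzymes Eno2 and Aldoc held smaller shares of their pair in deficient cells, and the inducible Hk2 a larger one. Minor forms did not all go 1 way. Pfkl, the smallest of the 3 phosphofructokinase RNAs in control cells at 9.65%, was 16.8% in deficient cells. The Eno2 share leaves out Eno1b and Gm4735, which share Eno1's sequence.

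**Figure D4:**
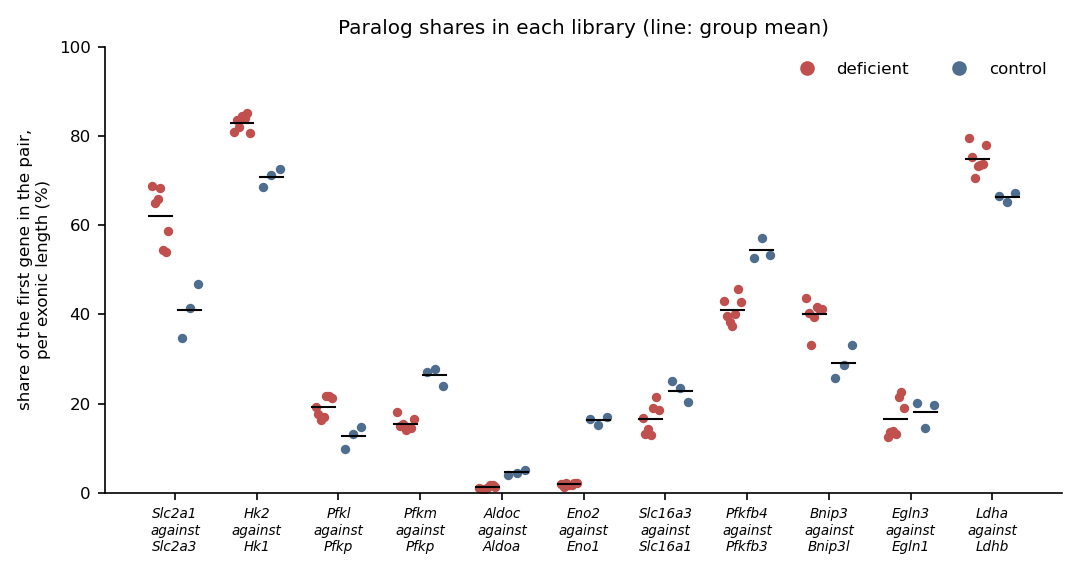
Share of the first-named gene in each of 11 pairs (y axis, percent of the pair's CPM per exonic length), with 1 point for each deficient library (left, n = 7) and control library (right, n = 3) and a line at the group mean. The groups are apart in 9 pairs and overlap for Slc16a3 against Slc16a1 and Egln3 against Egln1.

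The Gapdh and Eno1 changes stand beside opposite changes in genes that share their sequence. Of Gapdh's stretches of 50 bases, 25.1% occur in 223 other genes, 213 of them annotated pseudogenes. Gm13394, which holds 19.6% of them, had 0 to 0.285 CPM in deficient libraries and 76.9, 76.5 and 79.8 CPM in control libraries (adjusted p = 9.24e-13). Of Eno1's stretches, 26.0% are shared. Eno1b, which holds 25.3% of them, averaged 0.370 ± 0.241 CPM in deficient libraries and 31.6 ± 3.02 CPM in control libraries (adjusted p = 5.76e-11). Gm4735, with 19.0%, averaged 0.438 ± 0.159 and 17.2 ± 1.04 CPM (adjusted p = 3.27e-11). Thus 3 genes near 0 in all deficient libraries were counted at 16.2 CPM or more in each control library. The labels give 1 strain for all mice and do not say whether the groups came from 1 colony. Whether the groups differ in genetic background or read processing was not tested, and such a difference cannot be told apart from diet in any comparison here. When each gene's counts were summed with those of its sequence-sharing genes, Eno1 averaged 518 ± 46.8 CPM in deficient and 248 ± 19.5 CPM in control cells, and its log2 fold change was 0.99 in place of 1.30. The ratio of Eno2 to Eno1 was not recomputed with that sum. The Gapdh sum averaged 845 ± 36.6 and 469 ± 3.42 CPM, at 0.77 in place of 1.03. All 24 calls among the 33 genes were kept in that fit. Only genes that hold at least 2% of a gene's stretches were added. Many called genes, among them Hk2, Pfkl, Aldoc and Eno2, had nothing added, so keeping their calls was no check on them. AC160336.1, which holds 33.9% of Bnip3's stretches, was not among the genes added. The Aldoc and Hk2 sequences are shared with no other gene, and 0.136% of that of Eno2 is.

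**Figure D5:**
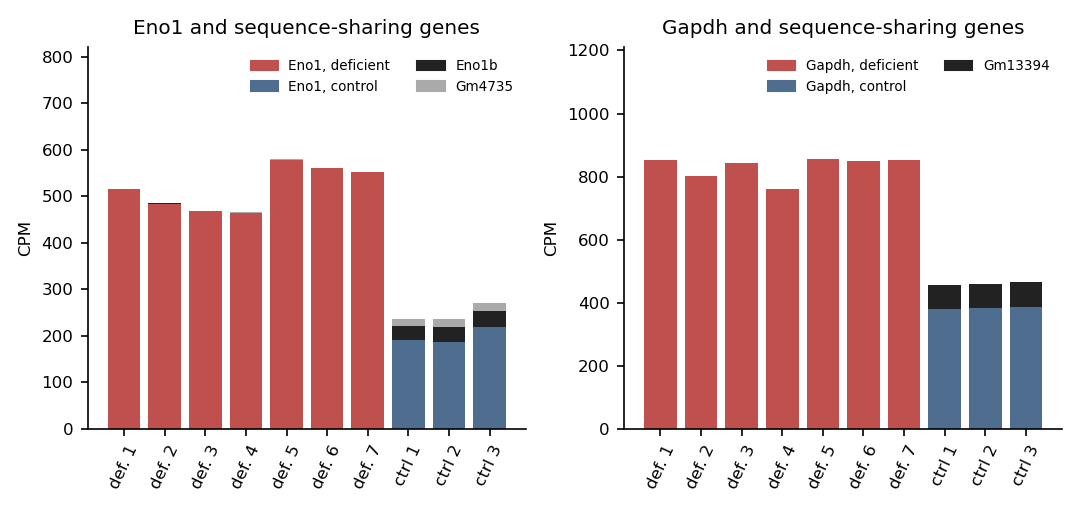
Stacked CPM (y axes, from 0) of Eno1 with Eno1b and Gm4735 (left panel) and of Gapdh with Gm13394 (right panel) in 7 deficient and 3 control libraries. Eno1b, Gm4735 and Gm13394 add visible height to the control bars only, and the deficient bars are the taller ones with them included.

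Genes around the pathway, taken from lists, are read beside the shares of all tested genes, 29.4% higher and 28.6% lower. Of 24 further glycolysis genes 13 were tested, and 3 (23.1%) were higher and 4 (30.8%) lower in deficient cells, near those shares. Adpgk, an ADP-dependent glucokinase, averaged 24.0 ± 2.46 and 10.2 ± 2.06 CPM (log2 1.14), and Tigar, a phosphatase that lowers fructose 2,6-bisphosphate, was higher too (1.66). Eno3, the muscle enolase, was lower (-0.64), as was the transporter gene Slc2a8 (-0.80). Of 12 tested genes for pyruvate entry into mitochondria 6 (50%) were higher and 2 (16.7%) lower. The higher ones included Dld, a subunit of the pyruvate dehydrogenase complex (0.92), and Mpc1, a pyruvate carrier (0.65), and the lower ones were Pdp2, a phosphatase that activates the complex (-0.78), and Pcx, pyruvate carboxylase (-0.64). In the pentose phosphate pathway 5 of 9 genes (55.6%) were higher, among them G6pdx (0.65), its first enzyme, Rpia (0.74) and Rpe (0.60), and 1 of 9 (11.1%), the transketolase gene Tkt, was lower (-0.61).

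Of 13 tested genes of the HIF machinery 3 (23.1%) were higher and 5 (38.5%) lower, against 29.4% and 28.6% of all tested genes. Arnt, the partner of HIF1A, averaged 33.1 ± 1.97 CPM in deficient and 69.0 ± 6.09 CPM in control cells (log2 -1.15, adjusted p = 3.29e-09). Epas1, which encodes HIF2A, averaged 9.68 ± 3.56 and 57.5 ± 2.17 CPM (-2.67, adjusted p = 9.30e-07). Cul2 (1.12) and Elob (0.71), parts of the VHL ubiquitin ligase, were higher. Of 28 other HIF targets 11 (39.3%) were higher and 9 (32.1%) lower. They included Ero1l, an oxidase of the endoplasmic reticulum, at 501 ± 43.2 and 199.7 ± 10.2 CPM (1.24), and the transcriptional repressor Bhlhe40 (0.82), against Wsb1 (-0.68) and Ankzf1 (-0.85). Among 20 regulators of glycolysis 8 (40.0%) were higher and 6 (30.0%) lower. Txnip and Arrdc4, arrestins that restrain glucose uptake, were higher, Txnip at 259 ± 41.0 and 75.9 ± 11.9 CPM (1.68) and Arrdc4 at a log2 change of 2.43. Irf4, a factor that promotes glycolysis in T cells, was higher (0.34), Rictor, of mTORC2, was lower (-0.46), and Myc did not pass.

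Of 18 cell cycle genes 11 (61.1%) were lower and 4 (22.2%) higher in deficient cells, against 28.6% and 29.4% of all tested genes, and their summed CPM was 2413 to 3983 in deficient libraries and 4618 to 4762 in control libraries. Cenpa (log2 -1.52), Aurkb (-1.26), Top2a (-0.93) and Ccnb2 (-1.88) were among the lower ones. Summed B cell markers were 56.2 to 318 CPM in deficient and 15.9 to 104 CPM in control libraries, and the 9 TH2 and T cell markers 832 to 1013 and 1286 to 1356 CPM. Macrophage markers summed to 4.69 to 6.81 CPM in deficient and 14.5 to 15.4 CPM in control libraries, and dendritic cell markers, of which 2 of 6 were at 0 in all deficient libraries, to 12.1 to 20.1 and 5.61 to 10.7 CPM. Erythroid markers reached at most 0.711 and 0.481 CPM, and neutrophil markers 0.854 and 0.321 CPM, and none of either list passed the count filter. The part of proliferation or of other cells in the glycolysis results was not tested. Without deficient libraries 5 to 7, which held the most cytotoxic and B cell markers, 12 of the 33 genes were higher and 14 lower. As those libraries were set apart on these same data, the calls made without them are a description. Without the Xist-high deficient libraries 1 and 3, 14 were higher and 8 lower. Batch 1 alone gave 12 higher and 8 lower, with 20 of the 24 calls kept, and batch 2 alone 13 higher and 9 lower, with 21 kept.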

How the data were processed

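Libraries of TH2 cells from day 5 were prepared, per the labels' protocols, with a globin kit for total RNA that keeps the strand. The deposited values are raw read counts per gene, with STAR 2.7.10a, HTSeq 0.13.5 and GRCm38 named in the submitters' processing notes. Gene models and the strand option used for counting were not given in the sources used here. Total RNA includes unspliced RNA, and reads that match several genes can be lost.

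Of 49671 IDs, 49412 matched GENCODE M21, and the other 259 held 0.0226% of counts. The 33 genes and all lists were chosen with earlier results of these data known. Counts were fitted in R 4.3.3 with edgeR 4.0.16 (filterByExpr with a minimum count of 10, TMM, robust glmQLFit, glmQLFTest, diet plus batch), at a biological coefficient of variation of 12.7%. DESeq2 1.42.0, other scalings, no filter, no batch term, single batches and omitted libraries were alternatives. Replicates differed by more than sampling noise (chi-square per gene 2.66 to 44.7), and all 10 libraries were kept. That spread does not show whether the libraries came from separate mice. Paralog ratios had 0.5 added to each count. Levels and shares per length used the merged exons of all annotated transcripts. Shared sequence was counted in exonic stretches of 50 bases, and the fit that sums sequence-sharing genes was chosen after seeing the data. On simulated counts of 13316 genes for deficient against control, the test recovered 25 of 67 with a 1.5-fold change, 47 of 67 with a 2-fold and 57 of 66 with a 4-fold one, and made 10 false calls among 139. No other simulated gene was changed, whereas 58.0% of tested genes were called in the data. The adjustment depends on that share, so the recovery does not measure sensitivity here. Values per library are given for genes past the threshold with a log2 change of at least 0.5, for Hif1a and for main pairs. Up to 4 genes of each other list are named by smallest adjusted p. Myc, the 9 T cell and TH2 markers and Gzmb are apart from this and were chosen after their values were seen.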

Additional observations from a re-analysis of the deposited data

Results flagged for a closer look

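The highest and lowest of the 7 deficient libraries were checked for a gap to the nearest other library above the 95% critical value of Dixon's test, in 33 genes and 11 ratios. Of these 44 checks 3 were past it, and chance gives about 1 in 20. Bnip3 was lowest in deficient library 3 at 26.0 CPM, while the median of the group was 39.2 CPM. The log2 ratio of Bnip3 to Bnip3l was lowest in the same library, at -1.78, and so repeats the first. The log2 ratio of Eno2 to Eno1 was lowest in deficient library 2, at -6.36. In all 3 cases the library stayed on its group's side of every control library.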

How the results depend on the processing

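Over all alternatives 12 to 15 of the 33 genes were higher and 8 to 14 lower with every library kept, 1 batch alone, or libraries 1 and 3 or 5 to 7 of the deficient group set aside, and 11 to 14 and 8 to 13 with 1 library left out. No gene past the threshold changed direction under any alternative. Genes that had not passed changed sign as follows. Egln3 was 0.16 in batch 2 alone, 0.045 with column totals, 0.0698 with no count filter and 0.0796 without deficient libraries 1 and 3, and ran from -0.20 to 0.17 with 1 library left out. Ddit4 was -0.0271 without deficient libraries 5 to 7, Hk1 0.00475 in batch 2 alone, and Pgam1 -0.0131 in batch 1 alone and -0.0148 to 0.19 with 1 library left out. The median of the enzymes was 0.11 in batch 2 alone, against -0.02. Column totals moved the median of all genes to 0.10 and no count filter to 0.19. In both Ddit4 passed (0.23 and 0.25) and Gpi1 did not. Calls of Pdk1 and Slc16a3 were lost in batch 1 alone, and those of Bnip3l and Gpi1 in either batch. The cause was not tested. No paired analysis was possible because the labels carry no replicate numbers.

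Without deficient libraries 5 to 7, which leaves fewer splits, the ratios of Bnip3 to Bnip3l (0.64) and Ldha to Ldhb (0.59) had an adjusted exact p of 0.0571, and Egln3 to Egln1 passed (-0.52, adjusted exact p = 0.0349). Those libraries were set apart on these same data, so these p-values are a description. Slc16a3 to Slc16a1 was not past the threshold without control library 1 or 2 or deficient library 2, 3 or 4, at -0.71 to -0.52 over all libraries left out. Control libraries held at most 6462146 counts, so a gene at the same level, such as Egln3, rests on fewer counts there.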
